A study of Mus musculus with 8 samples.

Results

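Transcripts of chromatin remodelers, bromodomain readers and histone chaperones were compared between cultured mouse cortical neurons that lack the histone variant H2BE and wild-type neurons. The members were the 71 of 26229 table rows whose mean normalized count reached 10 and whose symbols belong to the Smarc, Chd, Brd, Arid, Baz, Ino80, Actl6 and Nap1l name families or to a list of 14 chaperone and cofactor symbols. Neurons were isolated at E16.5 and kept in culture for 12 days. The KO group held 4 libraries of genotype H2BE-KO/mCherry-KI, in which an mCherry knock-in accompanies the loss of H2BE, and the WT group held 4 libraries of genotype WT. The labels call them biological replicates, give no further allele, agent or strain, and do not say whether embryos were pooled or which part of the gene was replaced. The fold changes, their standard errors (SE) and the adjusted p values were taken from the authors' deposited table, a DESeq2 comparison of the genotypes, and are written as KO over WT. A gene was called at an adjusted p under 0.05.

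The table names no direction, so the sign was read from the targeted gene. In the authors' deposited table H2bc21, which encodes H2BE, stood at -3.45 on the log2 scale (SE 0.19, adjusted p = 4.49e-68) once its sign was set to a fall. If that reading were wrong, every rise and fall below would swap. Levels in KO and WT are those implied by a gene's mean normalized count over all libraries and its fold change, with equal group sizes. The spread of single libraries was not analysed here, and the SE carries the spread between replicates.

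Nucleosomes are moved, ejected or rebuilt by ATP-driven remodelers, which fall into the SWI/SNF, ISWI, CHD and INO80 families. Histone chaperones escort free histones and hand them to DNA, and bromodomain proteins bind acetylated histone tails. In developing neurons the SWI/SNF complex, called BAF, is known to exchange subunits: Actl6a, Ss18 and Phf10 or Dpf2 of progenitors give way to Actl6b, Ss18l1 and Dpf1 or Dpf3 after mitosis. Many genes of these families are known as dosage-sensitive genes of neurodevelopmental disorders.

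Promoter letters are shown for the 2 called genes with the smallest adjusted p in each direction that had an entry in the RefSeq promoter table. They are Smarca2 and Actl6b, which rose, and Arid5b and Asf1a, which fell. Each run is read 5′ to 3′ on the gene's own strand in GRCm38.p6 and ends before the first exon base annotated by RefSeq or GENCODE. Smarca2 is at chr19:26604910-26605049 on the plus strand, Actl6b at chr5:137553296-137553516 on the plus strand, Arid5b at chr10:68278741-68278976 on the minus strand and Asf1a at chr10:53596711-53596756 on the plus strand. Capitals mark matches, on either strand, to the GC box GGGCGG, the CCAAT box CCAAT and the TATA box TATAAA.
Smarca2: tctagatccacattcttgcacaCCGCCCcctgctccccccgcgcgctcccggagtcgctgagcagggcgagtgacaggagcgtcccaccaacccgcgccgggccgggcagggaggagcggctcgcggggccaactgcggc
Actl6b: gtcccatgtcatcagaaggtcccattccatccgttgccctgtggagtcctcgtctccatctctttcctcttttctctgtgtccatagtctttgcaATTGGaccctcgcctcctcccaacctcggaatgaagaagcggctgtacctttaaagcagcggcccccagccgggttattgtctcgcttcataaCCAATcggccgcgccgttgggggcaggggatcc
Arid5b: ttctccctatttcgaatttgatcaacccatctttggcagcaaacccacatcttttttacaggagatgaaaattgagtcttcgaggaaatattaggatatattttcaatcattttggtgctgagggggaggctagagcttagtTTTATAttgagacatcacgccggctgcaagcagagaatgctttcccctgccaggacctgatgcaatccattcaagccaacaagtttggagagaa
Asf1a: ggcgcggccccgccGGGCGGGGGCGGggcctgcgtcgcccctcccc

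The Smarca2 stretch of 140 bases held 1 GC box and 16 CpG dinucleotides, and the 46 bases of Asf1a held 2 GC boxes and were 93.5% G or C. The Actl6b stretch held 2 CCAAT boxes and no GC box. Arid5b differed in make-up from the other 3, with 42.4% G or C over 236 bases, 4 CpG dinucleotides and a TATA box match. RefSeq promoters were found for 51 of the 68 protein-coding members. In the 250 bases before the start, 36 of these 51 (70.6%) held a GC box, against 57.0% of 12325 promoters of tested genes and 33.0% of all 27025 promoters. The CCAAT box was found in 39.2% of members and 36.2% of promoters of tested genes, and the TATA box in 5.88% and 7.10%. Other motifs searched were the ETS letters CCGGAAG, found in 19.6% of members and 12.2% of promoters of tested genes, and the E-box CACGTG, found in 7.84% and 8.22%. AAGATGGC (YY1) and TGACGTCA (CRE) each matched 1 member promoter. No search motif contains another, and a match describes letters, not binding. The member promoters had a median of 63.6% G or C and 20 CpG dinucleotides, against 59.6% and 15 for promoters of tested genes.

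Most remodeler, reader and chaperone transcripts did not pass the test between KO and WT neurons. The authors' deposited table called 13 of 71 members (18.3%), 8 higher and 5 lower in KO, against 21.8% of all 18085 tested genes, of which 11.0% were higher and 10.9% lower. Members are well-expressed genes, with a median mean normalized count of 2571. Among the 6808 tested genes with a mean count of at least 1000, 30.6% were called. The median log2 fold change was 0.11 over members and -0.02 over all tested genes, and 45 of 71 members lay above 0, against 47.8% of all tested genes. The rises were those of Smarca2, Actl6b, Smarce1, Smarcad1, Atrx, Brd3, Arid4a and the pseudogene Smarca5-ps. The falls were those of Baz1a, Arid5b, Asf1a, Arid5a and Ino80c. Of the 58 members not called, 38 had a 95% interval that lay wholly between log2 fold changes of -0.5 and 0.5. The same held for 4571 of all 14137 tested genes not called, and for 3268 of the 4722 with a mean count of at least 1000. All 71 members had an adjusted p. No call among them held with a heavier-tailed null (a t distribution with 6 degrees of freedom) or with a null widened to the spread of the table, as given in the closing section. Of all 18085 tested genes, these nulls left 1 and 74 calls, so the loss was not particular to members.

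**Figure D1:**
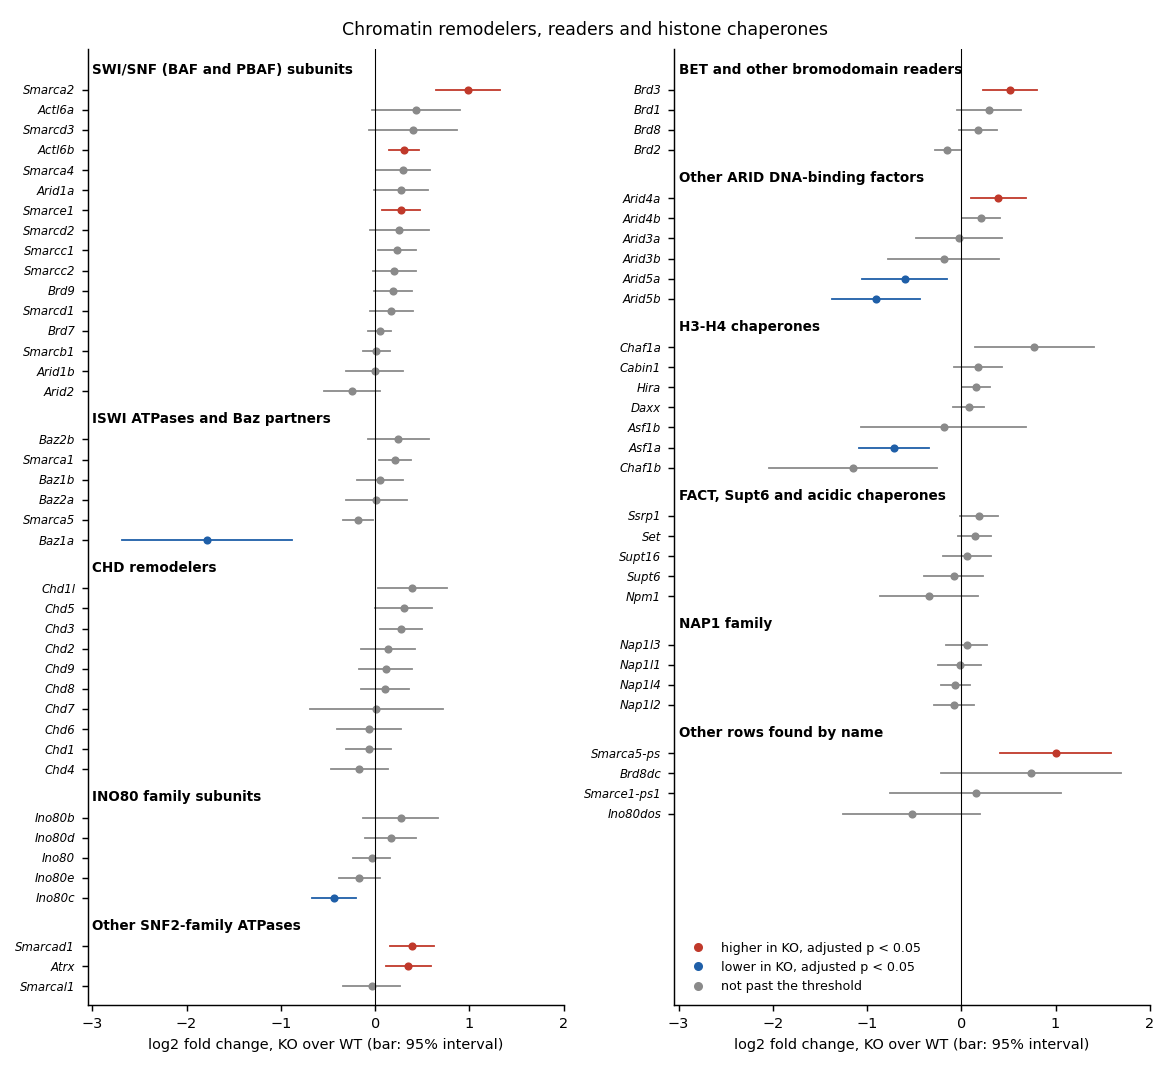
Log2 fold change, KO over WT, of the members by role, with 95% intervals from the authors' deposited table. Red marks the 8 members called higher in KO, blue the 5 called lower and grey members that were not called, most of which cross 0; 1 uncalled member is not drawn.

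**Figure D2:**
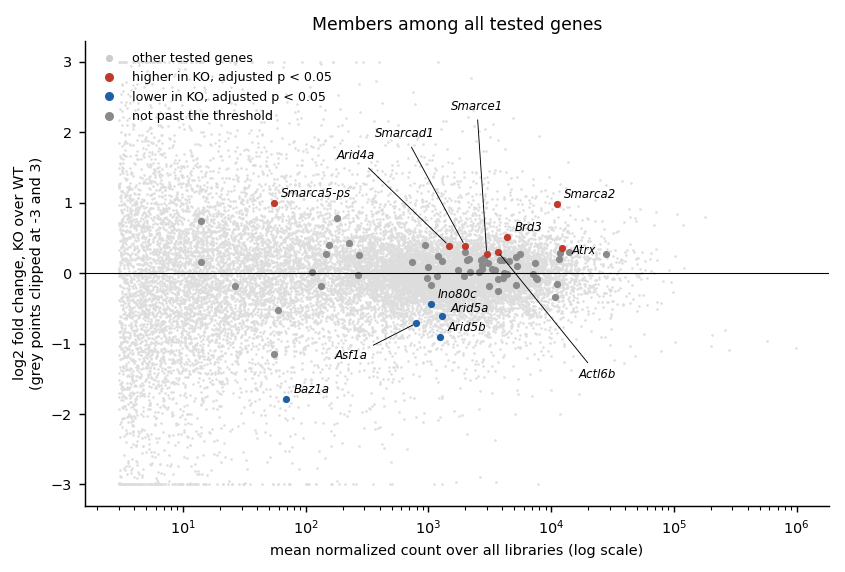
Log2 fold change, KO over WT, against mean normalized count (log scale) for all tested genes (light grey, clipped at -3 and 3) and for members (large points, called members named). Smarca2 stands above the other abundant members, and Baz1a is the lowest member, at a mean count of 69.0.

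Of 16 SWI/SNF subunits found by name, 3 rose, none fell and 13 missed the threshold. The 18.8% that rose is near the 15.6% of tested genes with a mean count of at least 1000. The median was 0.24 on the log2 scale, and 14 of 16 lay above 0. Smarca2, one of the alternative ATPases of the complex, had an implied level of 14791 normalized counts in KO neurons, against 7475 in WT neurons. It rose 1.98-fold, or by 0.98 on the log2 scale (SE 0.17, adjusted p = 8.31e-07) in the authors' deposited table. Smarca2 (ENSMUSG00000024921) spans chr19:26605050-26778322 on the plus strand of GRCm38. Smarca4, the other ATPase, had 13043 in KO neurons and 10643 in WT neurons, and was at 0.29 on the log2 scale (SE 0.15, adjusted p = 0.145). The 95% intervals, 0.64 to 1.33 for Smarca2 and 0.0042 to 0.58 for Smarca4, did not overlap, but the difference between the genes was not tested. Per kilobase of exon the mean count of Smarca4 was 2.34 times that of Smarca2. This ratio comes mainly from exon lengths of 6475 and 14269 bases, since the mean counts were 11843 and 11133.

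Actl6b, the actin-related subunit of neuronal BAF, rose 1.23-fold, with 4061 normalized counts in KO neurons and 3289 in WT neurons. Its log2 fold change was 0.30 (SE 0.08, adjusted p = 0.0015). Its progenitor counterpart Actl6a was at 0.43 (SE 0.24, adjusted p = 0.196), with implied levels of 259 in KO neurons and 192 in WT neurons. Actl6a overlaps Mrpl47 on the opposite strand. Per kilobase of exon Actl6b had 14.9 times the mean count of Actl6a. Smarce1, the HMG-box subunit, rose to 0.27 (SE 0.10, adjusted p = 0.039). The scaffold paralogs Smarcc1 and Smarcc2 were at 0.23 (SE 0.10, adjusted p = 0.0821) and 0.20 (SE 0.12, adjusted p = 0.212). The 3 paralogs Smarcd1, Smarcd2 and Smarcd3 lay between 0.17 and 0.40, all with adjusted p above the threshold. The ARID subunits, which set BAF apart from PBAF, were at 0.28 (Arid1a, SE 0.15), -0.0044 (Arid1b, SE 0.15) and -0.25 (Arid2 of PBAF, SE 0.15), none of them called. The core subunit Smarcb1 was at 0.01 (SE 0.08), and the bromodomain subunits Brd7 and Brd9 were at 0.05 (SE 0.06) and 0.19 (SE 0.10).

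The other SWI/SNF subunits, which carry names outside the rule, held a larger share of rises. Of 15, 8 rose, 1 fell and 6 missed the threshold, and the median was 0.30. In the authors' deposited table Dpf1 rose to 0.72 (SE 0.13, adjusted p = 1.91e-06) and Dpf3 to 1.28 (SE 0.27). Both encode PHD-finger subunits of neuronal BAF. Bcl7a rose to 0.77 (SE 0.15), and Bcl11a, a zinc-finger transcription factor that copurifies with the complex, to 0.83 (SE 0.18). Of the remaining positions of the progenitor-to-neuron exchange, named after their values were seen, Ss18l1 rose to 0.27 (SE 0.10, adjusted p = 0.0432). Its progenitor counterpart Ss18 was at -0.32 (SE 0.13, adjusted p = 0.0674), Dpf2 at -0.23 (SE 0.12, adjusted p = 0.163) and Phf10 at 0.06 (SE 0.10). Both lists together gave 11 higher and 1 lower of 31 subunits, or 35.5% higher, against 11.0% of all tested genes and 15.6% of those with a mean count of at least 1000. The fall was that of Bcl7b at -0.37 (SE 0.14, adjusted p = 0.0384), named after its value was seen. Bcl11b, at 0.71, also serves below as a marker of immature neurons, so those lists share a gene.

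**Figure D3:**
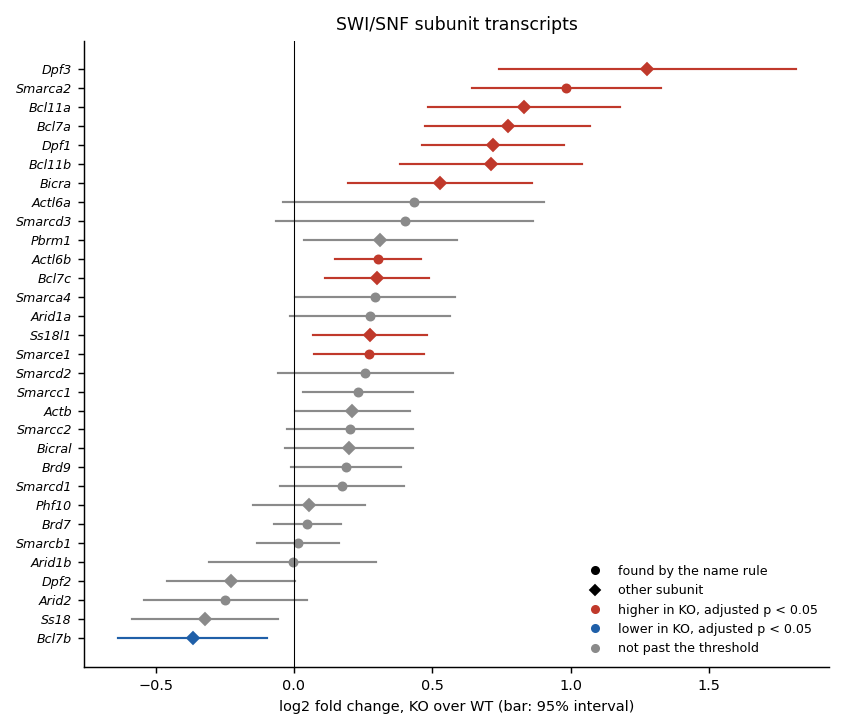
Log2 fold change, KO over WT, with 95% intervals for 31 SWI/SNF subunits, circles for the 16 found by the name rule and diamonds for the other 15. The 11 subunits called higher (red) include Smarca2, Dpf1, Dpf3, Actl6b and Ss18l1, and the 1 called lower (blue) is Bcl7b.

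Among ISWI remodelers, which space nucleosomes, 1 of 6 members fell and none rose. The 16.7% called compares with 21.8% of all tested genes. The median was 0.03, and -0.06 once the table-wide dependence on exon length and GC content was removed. The authors' deposited table gave Baz1a, the large partner of the ISWI ATPase in the ACF and CHRAC complexes, an implied level of 31.0 normalized counts in KO neurons, against 107 in WT neurons. Baz1a was thus at 29.0% of WT (log2 fold change -1.78, SE 0.46, adjusted p = 0.00128, interval -2.69 to -0.88). With a mean count of 69.0 it was the second lowest of the called members. The related Baz1b, Baz2a and Baz2b were at 0.05 (SE 0.12), 0.01 (SE 0.17) and 0.25 (SE 0.17), none of them called. The ATPase paralogs had opposite signs without passing: Smarca1 was at 0.21 (SE 0.09, adjusted p = 0.0642) and Smarca5 at -0.18 (SE 0.08, adjusted p = 0.104). None of 7 other ISWI partners, among them Bptf and Rsf1, passed by DESeq2, at either an adjusted or an unadjusted p under 0.05.

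None of the 10 CHD remodelers was called by DESeq2, and 3 had an unadjusted p under 0.05, as did 5970 of all 18085 tested genes. The CHD log2 fold changes ran from -0.17 to 0.39, and 7 of 10 intervals lay within 0.5 of 0. Of the 6808 tested genes with a mean count of at least 1000, 3589 had such an interval. The median of the CHD genes was 0.11, and 0.03 once the dependence on length and GC content was removed. The NuRD ATPases Chd3, Chd4 and Chd5 were at 0.28 (SE 0.11, adjusted p = 0.0648), -0.17 (SE 0.15, adjusted p = 0.479) and 0.30 (SE 0.15, adjusted p = 0.149) in the authors' deposited table. Chd3 was the most abundant of the 3 per kilobase of exon, with 5.08 times the mean count of Chd4. Chd8, a gene tied to autism, was at 0.10 (SE 0.13), and Chd7, mutated in CHARGE syndrome, at 0.01 (SE 0.36) at a mean count of 112. Of 12 other NuRD-list genes, 2 fell and none rose, or 16.7% called against 21.8% of all tested genes. The 2 that fell were the scaffold gene Gatad2a at -0.54 (SE 0.12, adjusted p = 2.00e-04) and Mbd2, a reader of methylated CpG, at -0.29 (SE 0.10, adjusted p = 0.0239).

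Of the 5 Ino80-named subunits 1 fell, Ino80c, and none rose, a called share near the 21.8% of all tested genes. The ATPase gene Ino80 was at -0.04 (SE 0.10, adjusted p = 0.829). Ino80c had 883 normalized counts in KO neurons and 1195 in WT neurons, or 73.9% of WT (log2 fold change -0.44, SE 0.12, adjusted p = 0.003) in the authors' deposited table. Ino80b, Ino80d and Ino80e lay between -0.17 and 0.27. Among 26 other subunits of the INO80, SRCAP and TIP60 complexes, which exchange or acetylate histones, 4 rose, 1 fell and 21 missed the threshold, and the median was 0.06. The 19.2% called is likewise near the share of all tested genes. The rises with the smallest adjusted p were those of Mbtd1 at 0.64 (SE 0.14), Epc1 at 0.42 (SE 0.11) and Yy1 at 0.35 (SE 0.11). Uchl5, a deubiquitinase shared with the proteasome, fell to -0.44 (SE 0.15, adjusted p = 0.0201).

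Of the 3 SNF2-family ATPases outside these complexes, 2 rose, against 11.0% of all tested genes. Smarcad1, which acts in heterochromatin upkeep, had 2246 normalized counts in KO neurons and 1713 in WT neurons, a rise of 0.39 on the log2 scale (SE 0.12, adjusted p = 0.00668) in the authors' deposited table. Atrx, the remodeler mutated in the X-linked alpha-thalassaemia intellectual disability syndrome, had 13781 in KO neurons and 10787 in WT neurons, a rise of 0.35 on the log2 scale (SE 0.12, adjusted p = 0.0231). Its partner Daxx, a chaperone of a replacement H3 variant, was at 0.08 (SE 0.08, adjusted p = 0.544). The replication-stress helicase gene Smarcal1 was at -0.04 (SE 0.16).

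Brd3 was the only one of 5 bromodomain reader genes called, a share near the 21.8% of all tested genes. It had 5144 normalized counts in KO neurons, against 3592 in WT neurons, and rose 1.43-fold (log2 fold change 0.52, SE 0.15, adjusted p = 0.00398) in the authors' deposited table. Its BET paralog Brd2, whose protein also binds acetylated histones, was at -0.15 (SE 0.07, adjusted p = 0.116). The 95% interval of Brd3, 0.23 to 0.81, did not overlap that of Brd2, -0.28 to -0.01. The difference between the genes was not tested. Brd1 and Brd8, subunits of acetyltransferase complexes, were at 0.30 (SE 0.17) and 0.18 (SE 0.10).

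The ARID factors outside SWI/SNF had calls in both directions, 1 higher and 2 lower of 6. Of all tested genes 11.0% were higher and 10.9% lower. The called share of this small group was above that background, and the difference was not tested. Both Arid5 genes fell. Arid5b, whose protein recruits the H3 lysine demethylase Phf2, had 866 normalized counts in KO neurons and 1621 in WT neurons, or 53.5% of WT (log2 fold change -0.90, SE 0.24, adjusted p = 0.00152) in the authors' deposited table. Arid5a, an RNA-binding stabilizer of inflammatory transcripts, had 1017 in KO neurons and 1544 in WT neurons (log2 fold change -0.60, SE 0.23, adjusted p = 0.0419). Arid4a, a retinoblastoma-binding cofactor, rose to 0.39 (SE 0.15, adjusted p = 0.039), and its paralog Arid4b was at 0.21 (SE 0.10, adjusted p = 0.135). Arid3a and Arid3b were at -0.02 (SE 0.23) and -0.19 (SE 0.30), and Arid3c stayed outside the members at a mean count of 1.78. The members nearest above the minimum of 10 were Brd8dc at 13.9 and Smarce1-ps1 at 14.1.

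Of 7 chaperones and cofactors of H3-H4 deposition, 1 fell and none rose, or 14.3% called against 21.8% of all tested genes. Asf1a, which hands H3-H4 dimers to the deposition machineries, had 599 normalized counts in KO neurons and 983 in WT neurons, or 61.0% of WT (log2 fold change -0.71, SE 0.19, adjusted p = 0.00174) in the authors' deposited table. Asf1b, its paralog of dividing cells, was at -0.19 (SE 0.45) at a mean count of 26.6. Per kilobase of exon Asf1a had 19.1 times the mean count of Asf1b. Asf1a overlaps Mcm9 on the opposite strand, which was at -0.28 (adjusted p = 0.299). The subunits of the replication-coupled CAF-1 complex had opposite signs and missed the threshold: Chaf1a was at 0.78 (SE 0.32, adjusted p = 0.0651) and Chaf1b at -1.15 (SE 0.45, adjusted p = 0.0514), at mean counts of 179 and 55.0. The replication-independent chaperone genes Hira and Cabin1 were at 0.16 (SE 0.08, adjusted p = 0.115) and 0.18 (SE 0.13, adjusted p = 0.336). Ubn1, counted below with the other histone chaperone genes, fell to -0.31 (SE 0.11, adjusted p = 0.0189). It was named after its value was seen. Hjurp, the centromere chaperone of the list, had no row under that symbol and so was not analysed here.

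The FACT subunits, which handle H2A-H2B, and the chaperone genes listed with them had no call. The FACT subunits Supt16 and Ssrp1 were at 0.06 (SE 0.13, adjusted p = 0.798) and 0.19 (SE 0.10, adjusted p = 0.176) in the authors' deposited table. Ssrp1 overlaps P2rx3 on the opposite strand, which fell to -0.88 (adjusted p = 0.00231). Supt6, an elongation factor and H3-H4 chaperone, was at -0.08 (SE 0.16). Set, an acidic inhibitor of acetylation and phosphatase activity, was at 0.14 (SE 0.09, adjusted p = 0.272). Npm1, the nucleolar chaperone nucleophosmin, was at -0.34 (SE 0.26, adjusted p = 0.381). Its SE exceeded that of the other 15 members with a mean count above 5000, which reached at most 0.17. None of these 5 genes passed by DESeq2, at either an adjusted or an unadjusted p under 0.05.

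The NAP1 family, nucleosome assembly proteins that carry H2A-H2B, had the narrowest range of the families. Nap1l1, Nap1l2, Nap1l3 and Nap1l4 were at -0.02 (SE 0.12), -0.08 (SE 0.11), 0.06 (SE 0.11) and -0.06 (SE 0.08) in the authors' deposited table. Their 95% intervals all lay between -0.29 and 0.27, and none passed by DESeq2 at an unadjusted p under 0.05. Mean counts ran from 3303 for Nap1l3 to 7549 for Nap1l4. Nap1l2 and Nap1l3 are intronless X-linked genes expressed in neurons. Nap1l5, an imprinted gene left out of the members, fell to -0.998 on the log2 scale (SE 0.21, adjusted p = 5.44e-05), with 6528 normalized counts in KO neurons and 13039 in WT neurons. Among 20 other histone chaperone genes, Nap1l5 included, 1 rose, 4 fell and 15 missed the threshold, and the median was -0.08. The share called lay between the 21.8% of all tested genes and the 30.6% of those with a mean count of at least 1000. Besides Nap1l5, Spty2d1 (-0.59, SE 0.15) and Anp32e, a chaperone of the variant H2A.Z (-0.34, SE 0.09), fell, and Tspyl5, a NAP-domain gene, rose to 0.43 (SE 0.09).

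**Figure D4:**
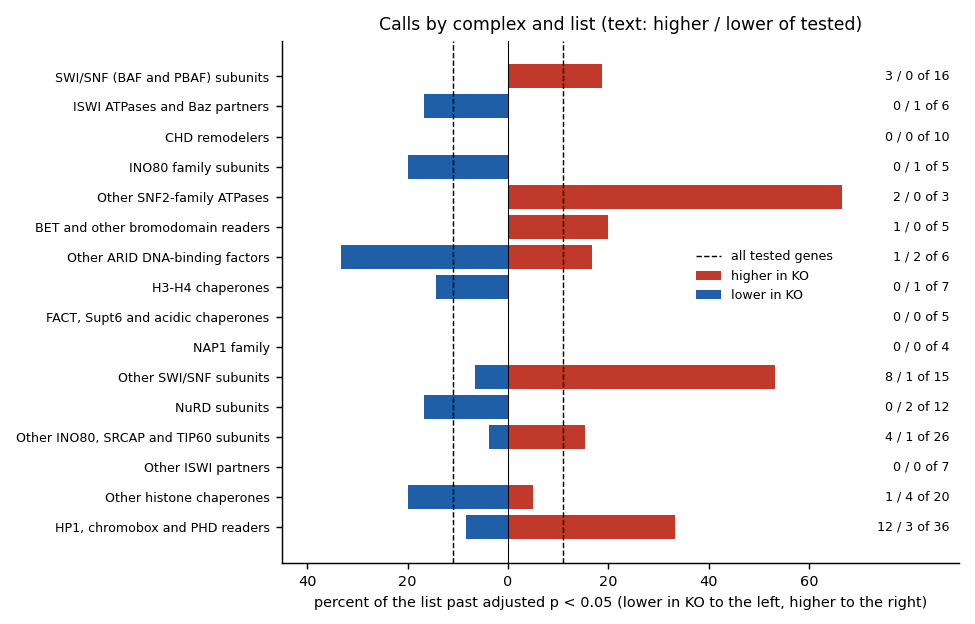
Percent of each list called higher in KO (red, to the right) and lower in KO (blue, to the left), with the shares of all tested genes as dashed lines at 11.0% and 10.9%. The other SWI/SNF subunits reach past the dashed line to the right with 8 of 15 genes, and CHD, FACT and NAP1 genes have no bar.

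The remaining 4 rows matched the names without being subunits. Smarca5-ps, a transcribed processed pseudogene, rose to 1.00 on the log2 scale (SE 0.30, adjusted p = 0.00724) in the authors' deposited table at a mean count of 54.9. Its transcript matched that of Smarca5 at 96.8% identity over 3163 aligned bases, so reads could have been assigned to either gene. That uncertainty weighs more on the pseudogene than on Smarca5, which had a mean count of 3092. Smarce1-ps1, at 98.3% identity to Smarce1 over 1077 bases, was at 0.15 (SE 0.46). Its value is uncertain in the same way, at a mean count of 14.1 against 2984 for Smarce1. Ino80dos, a non-coding RNA that overlaps Ino80d and Ndufs1 on the opposite strand, was at -0.53 (SE 0.37, adjusted p = 0.33). Brd8dc was at 0.74 (SE 0.49, adjusted p = 0.29). In all, 14 members overlapped another measured gene, and the use of strand in counting is not given in the sources used here.

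Members are long genes. The 68 protein-coding members had a median exon length of 7248 bases, against 3892 for all tested genes, and a median GC content of 49.4%, against 49.5%. Tested genes with a mean count of at least 1000 had a median exon length of 5367 bases. Over all tested genes the median log2 fold change was -0.28 in the shortest of 10 equal bins of exon length and 0.08 in the longest. Spearman's rho between fold change and exon length was 0.07 across the 68 members and 0.16 across 17980 tested genes, which share the same libraries and are not independent. With the trend in exon length and GC content removed together, the median of all 71 members was 0.06 and that of tested genes -0.02. All 13 called members kept their sign.

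**Figure D5:**
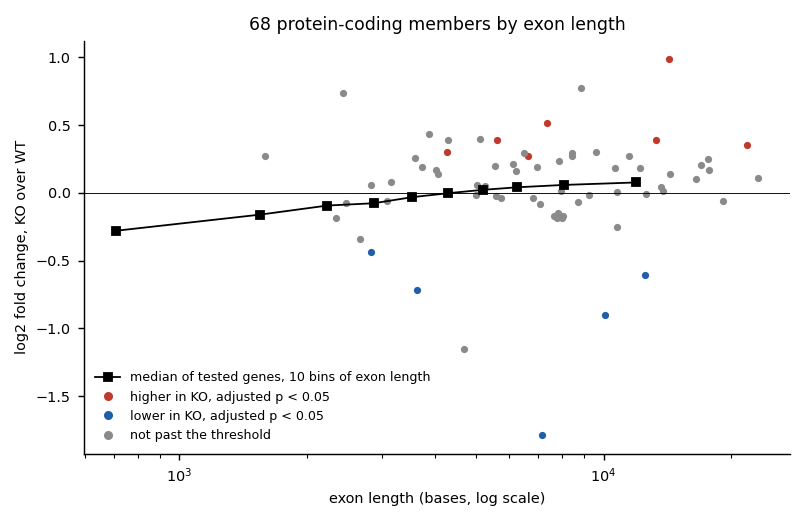
Log2 fold change, KO over WT, of the 68 protein-coding members against exon length (log scale), with the median of tested genes in 10 bins of exon length as black squares. The black line climbs from -0.28 to 0.08, and members lie mostly on its right side.

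Markers of cell types and maturity were set beside all tested genes, of which 21.8% were called (11.0% higher and 10.9% lower in KO). The called share was above 21.8% for immature neuron, mature neuron, interneuron, microglia, and endothelial and mural markers. It was near 21.8% for astrocyte and oligodendrocyte lineage markers and below it for proliferating cell markers. These differences in share were not tested, nor was the part of the markers in the results. Of 16 immature neuron markers in the authors' deposited table, 12 rose and none fell, with a summed implied level of 372966 normalized counts in KO neurons and 230365 in WT neurons. Of 14 mature neuron markers 2 rose and 4 fell (283061 in KO and 301949 in WT), and Map2, a defining neuronal gene, was at 0.05 (SE 0.11) at a mean count of 90482. Of 18 interneuron markers 8 fell and none rose (118707 in KO and 209378 in WT). Of 12 astrocyte markers 3 rose (25247 in KO and 13439 in WT), and of 12 tested microglia markers 6 fell (589 in KO and 1329 in WT). Slc1a2 held most of the astrocyte sums (17705 in KO and 9274 in WT), and 9 astrocyte markers did not pass. Cd68 held most of the microglia sum in WT (835). Of 9 tested endothelial and mural markers 4 fell (1444 in KO and 2409 in WT), and of 8 tested oligodendrocyte lineage markers 2 rose (2314 in KO and 1896 in WT). Rgs5, which was not called, held most of the endothelial and mural sums (1111 in KO and 1525 in WT). Mbp, also not called, held most of the oligodendrocyte lineage sums (1227 in KO and 1112 in WT). Of 20 proliferating cell markers 2 rose and 18 did not pass (4089 in KO and 3458 in WT). The markers nearest 0 were Sox10, at a mean count of 0.294, Cdh5 at 1.33, Mag at 1.39 and P2ry12 at 1.52. In such bulk samples fewer cells of a type and less RNA per cell cannot be told apart.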

How the data were processed

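Libraries were made from polyadenylated RNA with a stranded mRNA kit, per the labels' protocols. Per the submitters' processing notes, reads were mapped to mm10 and compared with DESeq2 (DESeq is also named), without versions. Which aligner, counter and annotation served is not given in the sources used here. Per gene, the authors deposited a signal (the mean over 8 libraries of counts divided by size factors), a log2 fold change with its SE, a Wald score, a p-value and an adjusted p-value. The score was checked to equal fold change over SE within 2.86e-07. No value per library was used, so depth per library is unknown. The mean counts summed to 3.96e+07.

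Signs were turned to KO over WT by the targeted gene. Calls used the deposited adjusted p over all 18085 tested genes. The 95% intervals are fold change ± 1.96 SE. Exon length (union of exons) and GC content came from GENCODE M21 (GRCm38), which matched 26039 rows, and promoters from RefSeq (GRCm38.p6). Lists are described by counts and medians, without a test. The members, lists and alternatives were chosen with earlier results of these data known. Named were at most 6 called members of each role group, by smallest adjusted p, with all partners of preset paralog sets, and up to 4 called genes of each other list. No sequence of chromosome 18 was printed. A preset display of proteins was not made. The values of 1 member that was not called are not reported here, but it is included in the counts. The calculation of adjusted p and the trend fit were tested on simulated data. Python 3.11.15, numpy 2.4.6, scipy 1.17.1, pandas 2.3.3, matplotlib 3.10.9 and BLAST 2.17.0 were used.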

Additional observations from a re-analysis of the deposited data

How the results depend on the processing

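The calls rest on the normal null of the deposited Wald test. Under a t null (6 degrees of freedom) 0 of 71 members were called (0 higher, 0 lower; smallest adjusted p 0.0682; 14 at an unadjusted p under 0.05), and 1 gene of all tested. With a null scaled to the table's interquartile range (1.96 times the normal) 0 members were called (0 higher, 0 lower; smallest adjusted p 0.189; 2 at an unadjusted p under 0.05), and 74 genes of all tested. An adjusted p under 0.01 left 9 members, with 5 higher; Arid4a, Atrx, Smarce1 and Arid5a were lost. A minimum log2 change of 0.5 left 7, with 3 higher. Adjustment over every gene with a p left 10 and lost Arid4a, Smarce1 and Arid5a. A threshold of 0.1, a mean count of at least 100 and protein-coding rows alone gave 18, 11 and 12 calls, within 1.5 times 13. The members' median log2 fold change ran from 0.06, with the exon length and GC trend removed, to 0.14, centred on all tested genes. No paired analysis was possible because the table holds no values per library, and leaving out replicates was not run for the same reason.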

Other observations

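Readers of histone marks outside the bromodomain-named members had more rises than falls. Of 36 HP1, chromobox, PHD-finger and related reader genes, 12 rose, 3 fell and 21 missed the threshold in the authors' deposited table, and the median was 0.20 on the log2 scale. Cbx5, which encodes the heterochromatin protein HP1 alpha, rose to 0.55 (SE 0.09), and Zmynd11, a reader of methylated H3, to 0.49 (SE 0.10). Ing1, a PHD-finger reader, rose to 0.54 (SE 0.12). Phf21b fell to -1.70 (SE 0.29) at a mean count of 127. The share called was 41.7%, against 21.8% of all tested genes and 30.6% of those with a mean count of at least 1000, and the difference was not tested.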
